A study of Mus musculus with 9 samples.

Results

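The transcriptome described here is that of WT regulatory T cells (Tregs) grown in culture, the 5 WT libraries among the 9 of the series. The members were chosen by their label alone, as all libraries labelled WT, and no measured value entered the choice. Tregs sorted by surface markers were stimulated with beads carrying antibodies to CD3 and CD28, expanded in medium with 2000 U/ml interleukin-2 (IL-2), and collected on day 4 for RNA sequencing. All 5 cultures came from C57BL/6 mice with the alleles Foxp3-Cre-GFP and R26-LSL-RFP, so the WT cells also carry a Cre recombinase expressed from Foxp3 and a red fluorescent reporter that Cre switches on. Culture 1 carries the genotype Ezh2-fl/+ and cultures 2 to 5 Ezh2-+/+. The series' design text calls the samples biological replicates, and the labels give neither sex nor age.

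Tregs are the CD4 T cells that restrain immune responses. Their identity depends on the transcription factor Foxp3, and they live on IL-2 made by other T cells, which they bind through a receptor whose alpha chain, Il2ra (CD25), is carried at high density. On activation, T cells of all kinds take up glucose, make lactate, copy their DNA and divide, and Tregs add the surface receptors and secreted factors by which they suppress.

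Levels below are given as TPM, a transcript abundance in which counts are divided by the length of a gene's exons and scaled to a sum of 1000000 in each library, so genes can be compared with one another. CPM, counts per 1000000 after library scaling, is used only for thresholds and for ranking genes by their share of the counts. Errors are SDs over the 5 cultures, and "expressed" means at least 1 CPM in each of the 5. The libraries held 32469450 to 59796319 counts, with a count for 17694 to 18500 genes each and mitochondrially encoded transcripts at 1.07 to 1.32% of counts. Of 13 mitochondrially encoded protein genes 6 were listed at 0, as described further on, so this mitochondrial share is uncertain. The common biological coefficient of variation, edgeR's estimate of how far a gene's level differs between cultures beyond counting error, was 0.186 over 12482 genes. Cultures 1 and 4 stood apart from cultures 2, 3 and 5 in sex-linked transcripts. Xist, the RNA that silences an X chromosome in female cells, was at 565 and 468 TPM in cultures 1 and 4 and at 0.199, 0.07 and 0.142 TPM in cultures 2, 3 and 5. The Y-linked helicase gene Ddx3y was at 0.0766 and 0.162 TPM in cultures 1 and 4 and at 109, 81 and 99.8 TPM in cultures 2, 3 and 5.

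The sequences around 3 transcription starts are shown because they differ in the CpG content described further on, with fewer CpG at the starts of Il2ra and Foxp3 than at that of Tmsb4x. Each is the strand of the gene read 5′ to 3′, from 250 bases before to 50 bases after an annotated start, from RefSeq on GRCm38.p6, with every CG in capitals. Il2ra lies at chr2:11642542-11642841 on the plus strand, Foxp3 at chrX:7580233-7580532 on the plus strand, and Tmsb4x, which encodes the actin-binding peptide thymosin beta-4, at chrX:167209169-167209468 on the minus strand. CG occurs 3 times in the Il2ra window, 8 times in that of Foxp3 and 20 times in that of Tmsb4x. Where a gene had several annotated starts, the window with most CpG was taken. The Foxp3 window lies within the gene's span, not at its outer end.
Il2ra: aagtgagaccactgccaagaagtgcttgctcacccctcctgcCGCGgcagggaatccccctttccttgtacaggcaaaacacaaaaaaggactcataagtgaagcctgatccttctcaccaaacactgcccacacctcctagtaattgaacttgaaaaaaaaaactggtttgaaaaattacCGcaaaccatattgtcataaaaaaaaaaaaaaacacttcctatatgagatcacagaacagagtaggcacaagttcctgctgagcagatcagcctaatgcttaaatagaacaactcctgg
Foxp3: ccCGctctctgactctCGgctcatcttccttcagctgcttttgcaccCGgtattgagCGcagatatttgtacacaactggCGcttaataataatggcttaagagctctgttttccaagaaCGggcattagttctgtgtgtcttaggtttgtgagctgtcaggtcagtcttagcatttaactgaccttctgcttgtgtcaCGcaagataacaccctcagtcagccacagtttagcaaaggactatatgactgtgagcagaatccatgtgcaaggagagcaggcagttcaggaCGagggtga
Tmsb4x: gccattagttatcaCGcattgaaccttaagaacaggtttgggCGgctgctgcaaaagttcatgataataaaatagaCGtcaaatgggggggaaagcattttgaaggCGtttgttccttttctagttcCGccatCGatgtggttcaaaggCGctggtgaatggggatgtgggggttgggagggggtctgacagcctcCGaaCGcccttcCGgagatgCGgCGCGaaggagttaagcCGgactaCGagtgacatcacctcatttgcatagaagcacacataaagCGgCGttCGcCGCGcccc

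The cells carried the transcripts that define Tregs, at high level in every culture. Foxp3 (ENSMUSG00000039521; GRCm38 chromosome X, 7573644 to 7595245) was at 1310, 1305, 1293, 1341 and 1100 TPM in cultures 1 to 5, a mean of 1270 ± 96.5 TPM (SD, n = 5). Culture 5 lay below the other 4, which were within a narrow band. Il2ra (ENSMUSG00000026770; chromosome 2, 11642807 to 11693193) was at 4075, 4222, 3653, 3960 and 3662 TPM, a mean of 3914 ± 252 TPM (SD, n = 5). By CPM, which is a share of counts, Il2ra ranked 1 among all genes, ahead of actin and of every ribosomal protein gene, and by TPM it ranked 11 among protein-coding genes. Of the 31-base sequence words of actin (Actb) 23.5% also occur in other genes, against 1.8% for Il2ra. The median for ribosomal protein genes is 25.1%. Counts of actin and ribosomal protein genes are therefore uncertain, and so is the rank of Il2ra above them. Ctla4 (ENSMUSG00000026011; chromosome 1, 60887000 to 60915832), the inhibitory receptor that strips CD80 and CD86 from antigen-presenting cells, was at 1458, 1452, 1354, 1746 and 1395 TPM, with culture 4 above the rest. Ikzf2 (ENSMUSG00000025997; chromosome 1, 69531214 to 69687245), which encodes Helios, was lower, at 135, 148, 161, 113 and 177 TPM, and lowest in culture 4. The order Il2ra, Ctla4, Foxp3, Ikzf2 held in all 5 cultures, and the ranges of neighbours did not overlap. Of the 31-base words of Foxp3 16.2% also occur in other genes, against 0% for Ctla4. The level of Foxp3 is therefore uncertain, and so is its place below Ctla4. In bulk RNA a lower level in fewer cells and less RNA in each cell cannot be told apart, here and for the genes that follow.

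Most protein-coding genes were either silent or expressed, with the class from 1 to 10 TPM smaller than those on either side. Of 21551 protein-coding genes in the table, 10492 (48.7%) were expressed in all 5 cultures and 6465 (30%) had no count in any of them. With 216375721 counts in all, 3 counts correspond to 0.0139 CPM over the 5 libraries, the limit that a count of 0 allows, for counting error only. Of the genes with a count in at least 1 culture, 4127 had a mean under 1 TPM, 2373 lay between 1 and 10 TPM, 6437 between 10 and 100 TPM and 2149 at 100 TPM or more. The genes of the last class were 9.97% of protein-coding genes and held 66.9 ± 0.507% of the TPM (SD, n = 5). The 100 genes with most counts took 15.1 ± 0.351% of counts (SD, n = 5), so no small group of genes dominated the counts. Counts of mitochondrially encoded and ribosomal protein genes are uncertain, so the share these 100 genes hold of the RNA itself is not known.

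**Figure D1:**
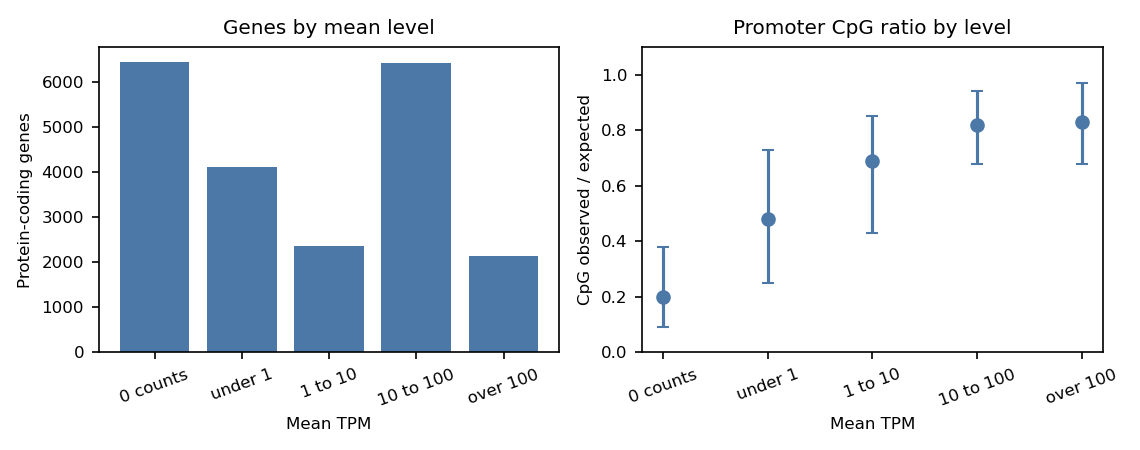
Left, number of protein-coding genes (bars) by mean TPM over the 5 WT cultures, with the genes at 0 counts as a class of their own. Right, ratio of observed to expected CpG in the 300-base window at the start of the matched genes of each class (points, medians; bars, lower to upper quartile); the medians run from 0.20 at 0 counts to 0.83 at 100 TPM or more.

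Cytoskeleton, translation and T cell surface genes led the ranking. Tmsb4x had the highest level as counted, at 15194, 13949, 11990, 13232 and 18603 TPM, highest in culture 5 and lowest in culture 3. The mitochondrially encoded mt-Co1, a subunit of cytochrome oxidase, followed at 11448 ± 526 TPM (SD, n = 5), and beta-actin (Actb) was at 7005 ± 546 TPM (SD, n = 5). Elongation factors Eef1a1 and Eef2 had means of 5388 and 4925 TPM, and B2m, the light chain of MHC class I, 5143 TPM. Of the 30 most abundant nuclear protein-coding genes, 7 encode ribosomal proteins, led by Rpl4 at 4652 ± 366 TPM (SD, n = 5). Rplp1 is among them, but 75.1% of its 31-base sequence words also occur in other genes, so its level is uncertain. The levels of mt-Co1, at 63.9%, Eef1a1, at 49.8%, Rpl4, at 29.1%, Actb, at 23.5%, and Eef2, at 21.2%, are uncertain too. The mitochondrial mt-Co2, mt-Co3 and mt-Atp6, at 99.5 to 100%, were listed at 0, so the first place of Tmsb4x is also uncertain. The galectin Lgals1, which Tregs also use as a suppressive lectin, was at 4016 ± 399 TPM (SD, n = 5). Alongside Il2ra, the top 30 held 2 receptors of the TNF family that Tregs carry, Tnfrsf4 (OX40) and Tnfrsf18 (GITR), with Thy1 and Cd2 of the T cell surface and the glycolytic enzymes Ldha and Aldoa. Together these 30 genes held 10.4 ± 0.495% of the TPM (SD, n = 5).

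**Figure D2:**
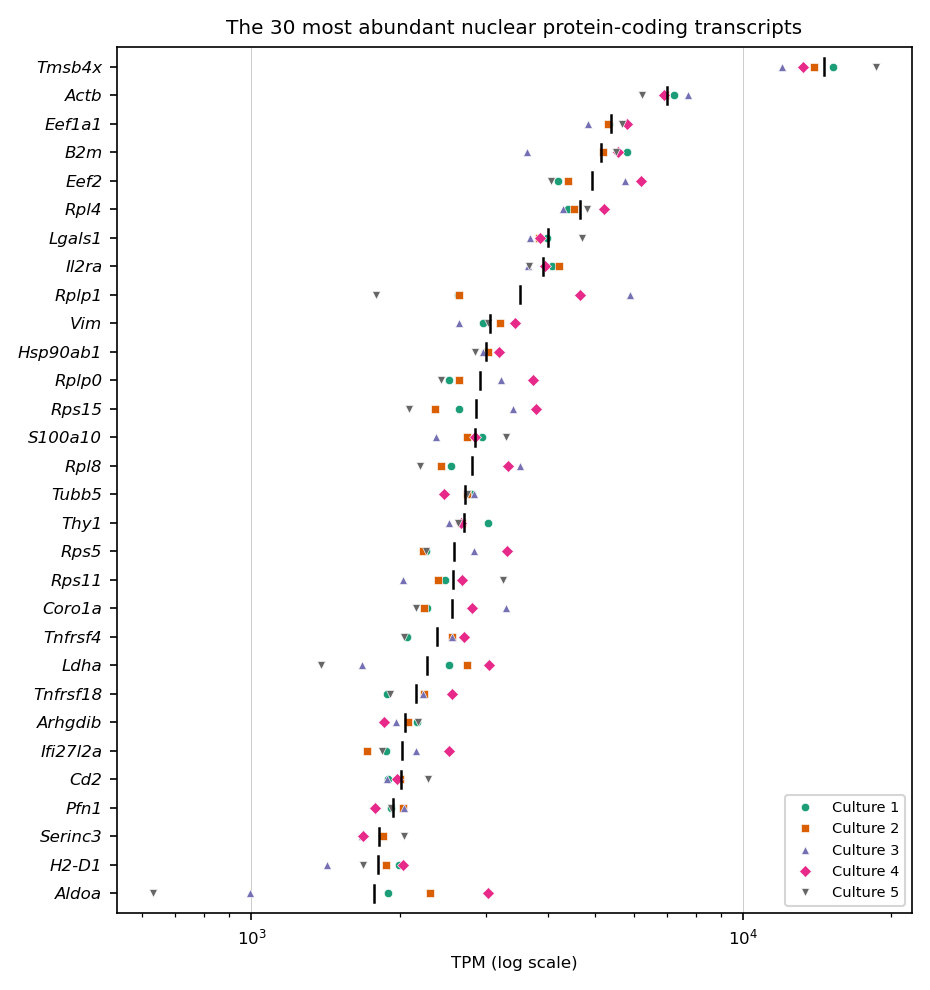
TPM (log axis) of the 30 nuclear protein-coding genes with the highest mean TPM; each symbol is 1 WT culture and the black tick the mean of 5. Most genes lie within a narrow band, while Ldha and Aldoa spread, with cultures 3 and 5 at the low end (992 and 631 TPM for Aldoa).

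Among transcripts annotated as long noncoding or as processed transcripts, Gm42418 had the highest mean, 1466 ± 541 TPM (SD, n = 5), with culture 3 highest at 2396 TPM. The 2410006H16Rik, Mir142hg and AW112010 transcripts followed at means of 427, 373 and 341 TPM. Mir142hg is the host transcript of a microRNA abundant in blood cells. Malat1, a nuclear noncoding RNA of nearly all cells, was at 236 ± 34.1 TPM (SD, n = 5), and Gas5, the host of small nucleolar RNAs, at 228 ± 30.2 TPM (SD, n = 5). Ifi30 and Cct6a, which are listed here only through their annotated biotype, are protein genes by name.

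Of the transcription factors listed, Foxp3 was the most abundant, followed by Irf4, which drives the effector program of activated T cells. Irf4 was at 484, 488, 473, 653 and 292 TPM, highest in culture 4 and lowest in culture 5, and its partner Batf at 197, 215, 274, 309 and 169 TPM in the same order of extremes. Factors tied to the resting and naive state were not absent. Tcf7, which encodes TCF-1, was at 251, 276, 343, 254 and 273 TPM, with culture 3 above the other 4, and Klf2, which keeps homing receptors on, at 298 ± 72.2 TPM (SD, n = 5). Bach2, a repressor that holds back effector differentiation, was at 78.4 ± 11.8 TPM (SD, n = 5). Foxo1, which promotes homing receptors, was at 116 ± 12.5 TPM (SD, n = 5) and Lef1, the relative of TCF-1, at 66.3 ± 6.44 TPM (SD, n = 5). Prdm1, which encodes Blimp-1, was lower, at 58.8, 54.1, 28, 59.8 and 64.4 TPM and lowest in culture 3. The chromatin organiser Satb1 was at 24.8 ± 7.32 TPM (SD, n = 5). Of the Ikaros family, Ikzf1 had a mean of 336 TPM, Ikzf4 (Eos) 195 TPM, Ikzf2 147 TPM and Ikzf3 (Aiolos) 94.3 TPM. The ranges of Ikzf4 and Ikzf2 met, at 177 TPM.

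Master factors of other T helper lineages were near the bottom of the expressed range. Tbx21 (T-bet, of T helper 1 cells) had a mean of 2.98 TPM, Eomes 5.59 TPM and Bcl6 (of follicular helper cells) 5.09 TPM. The ranges of Eomes and Bcl6 overlapped, so their order is not settled by these cultures. Tbx21 was at 3.2, 2.97, 1.93, 5.08 and 1.73 TPM, highest in culture 4. Gata3, the T helper 2 factor that Tregs also use, stood well above them at 68.1, 67.8, 94.2, 61 and 82.6 TPM. Zbtb7b (ThPOK), which holds T cells to the CD4 fate, and Runx3, which favours the CD8 fate, had means of 81.7 and 81.5 TPM and overlapping ranges. The signal transducers that act upstream were higher, with Stat6 at 268 TPM, Stat3 at 205 TPM and Stat5b at 165 TPM on average. Gata1, known as an erythroid and mast cell factor but listed here in the Treg signature, was at 159, 121, 108, 99.5 and 131 TPM. All 4 mast cell and basophil markers were under 1 CPM in every culture, with Fcer1a and Ms4a2 at 0. Of 7 erythroid and platelet markers 1 was expressed, and the 7 summed to 11.8 to 40.3 TPM. The globin genes Hbb-bt and Hba-a1 had means of 16.9 and 8.37 TPM, with 59.4 and 75.5% of their 31-base words also in other genes.

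**Figure D3:**
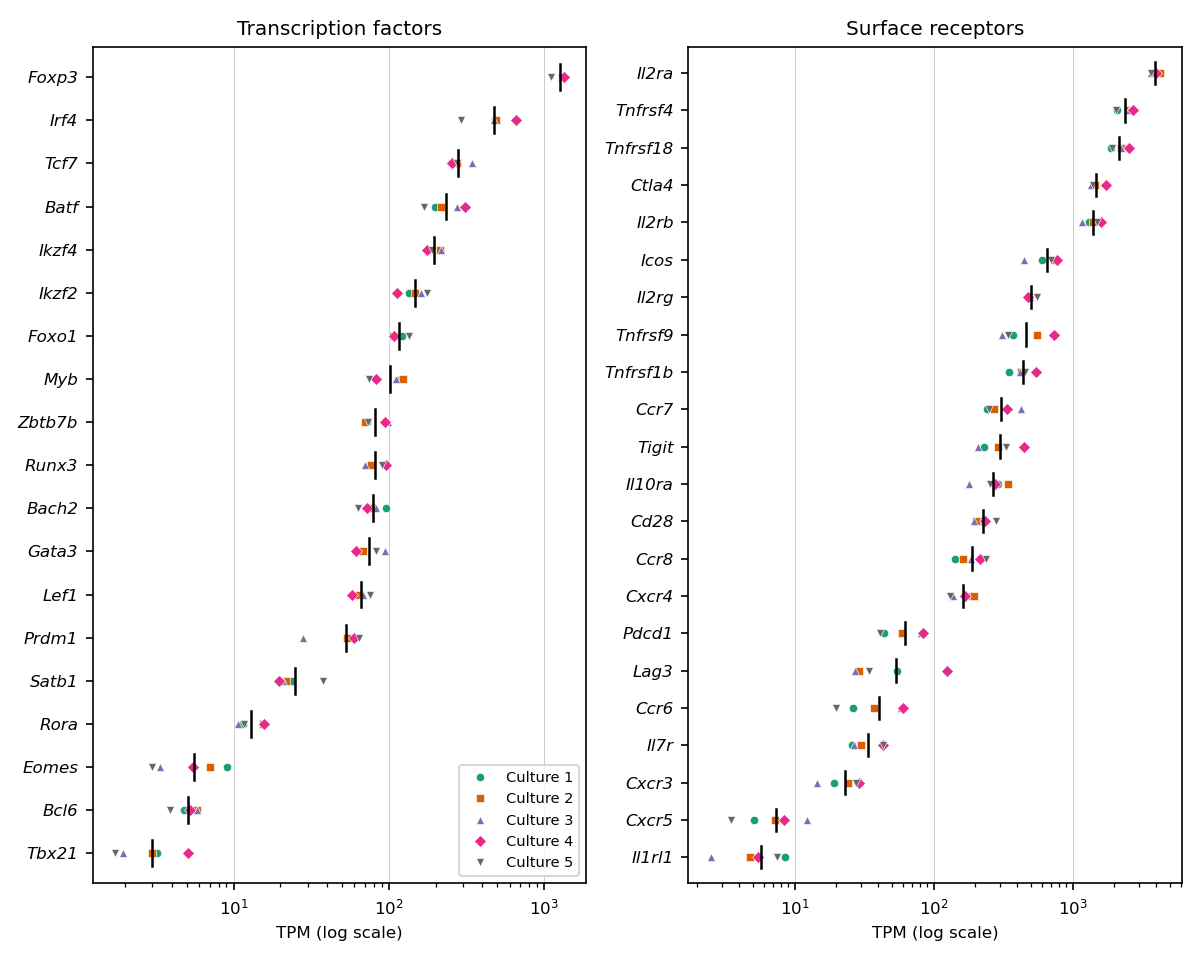
TPM (log axis) of transcription factors (left) and surface receptors (right), ordered by mean; each symbol is 1 WT culture and the black tick the mean of 5. Foxp3 and Il2ra lead, and Tbx21, Bcl6 and Eomes lie at 2.98 to 5.59 TPM on average.

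Of 33 genes listed as the Treg signature, 32 were expressed, with a median of 195 TPM against 36.8 TPM for all protein-coding genes expressed. Klrg1, a marker of terminally differentiated Tregs, was the exception, at 2.73 ± 0.317 TPM (SD, n = 5). At the surface, Izumo1r (folate receptor 4) had a mean of 725 TPM, Lrrc32 (GARP, which presents latent TGF-beta) 540.1 TPM, Nrp1 84.3 TPM and Itgae (CD103) 17.2 TPM. Lrrc32 hardly varied, between 517 and 567 TPM, whereas Itgae reached 31.3 TPM in culture 4 and 9.83 to 16 TPM elsewhere. Ecm1 and Capg, a secreted matrix protein and an actin-capping protein of activated Tregs, had means of 710.3 and 1267 TPM.

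The receptor for IL-2 was present with all 3 chains, while the ligand was nearly missing. Il2rb was at 1301, 1397, 1163, 1592 and 1504 TPM and Il2rg, the chain shared with other cytokine receptors, at 483, 483, 491, 477 and 556 TPM. Il2rg was stable but for culture 5, which lay above the rest. Il2 itself was at 1.1, 0.431, 0.499, 0.737 and 1.72 TPM. The kinases Jak1 and Jak3 had means of 373 and 272 TPM, and Stat5a, at 65.3 TPM, lay below Stat5b in every culture. Cish, a feedback inhibitor induced by STAT5, was at 697 ± 90.7 TPM (SD, n = 5), above Socs2, Socs3 and Socs1 at 195, 189 and 102 TPM. Pim1, a survival kinase downstream of the same receptor, was at 1233 ± 153 TPM (SD, n = 5) and the anti-apoptotic Mcl1 at 657 ± 75.6 TPM (SD, n = 5). The pro-apoptotic Bcl2l11 (Bim) was at 25.8 ± 3.55 TPM (SD, n = 5). Of the partners of the common gamma chain, Il4ra had a mean of 455 TPM and Il21r 183 TPM, while Il7r, which Tregs characteristically carry little of, had 33.8 TPM and Il15ra 5.41 TPM.

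Other cytokine receptors covered a wide range. Ifngr1 was at 780, 909, 557, 778 and 974 TPM, lowest in culture 3, and Il10ra at 269 ± 59.1 TPM (SD, n = 5). The TGF-beta receptors Tgfbr1 and Tgfbr2 had means of 105 and 65.4 TPM. Il18r1 had a mean of 83.5 TPM, the decoy receptor Il1r2 21.3 TPM and Il1rl1 (ST2, the receptor for IL-33) 5.73 TPM. Il1r1 and Il23r, at 0.589 and 0.121 TPM, were the lowest of the 27 receptors listed. Each of these last genes was low in all 5 cultures.

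Costimulatory members of the TNF receptor family were among the strongest surface transcripts. Tnfrsf4 was at 2070, 2559, 2557, 2706 and 2044 TPM and Tnfrsf18 at 1889, 2238, 2232, 2552 and 1909 TPM. Both were highest in culture 4 and lowest in cultures 1 and 5, and their ranges overlapped, although Tnfrsf4 was the higher in each culture. Tnfrsf9 (4-1BB) varied more, at 374, 554, 312, 738 and 343 TPM. Tnfrsf1b, the TNF receptor that supports Treg expansion, had a mean of 438 TPM, against 35.6 TPM for Tnfrsf1a, and Fas was at 54 TPM. Of the 11 members with a mean of at least 10 CPM, 8 had their highest CPM in culture 4, against 18% of the 8646 protein-coding genes at that level.

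Among inhibitory receptors Ctla4 led by a wide margin. Tigit followed at 229, 291, 210.1, 449 and 330 TPM, and Pdcd1 (PD-1) was at 44, 59.2, 81.1, 84 and 41.2 TPM. Lag3 was at 54.7, 28.9, 27.1, 125 and 34.5 TPM, so culture 4 alone was far above the rest. Icos, a costimulatory receptor, was at 604, 751, 446, 775 and 699.5 TPM, lowest in culture 3, and Cd28 at 227 ± 35 TPM (SD, n = 5). Btla and Cd96 had means of 74.1 and 115 TPM, and Havcr2 (TIM-3) 15.7 TPM.

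Homing receptors of lymphoid tissue and of inflamed tissue were present side by side. S1pr1, which lets T cells leave lymph nodes, was at 709 ± 98.6 TPM (SD, n = 5) and Ccr7, which leads them in, at 242, 271, 427, 335 and 252 TPM, highest in culture 3. Ccr4 and Ccr8, receptors of Tregs in skin and inflamed tissue, had means of 347 and 189.6 TPM, and Itgb7, a subunit of the gut-homing integrin, 1327 TPM. Ccr6, Cxcr3 and Cxcr5, which accompany the helper programs, had means of 40.5, 22.9 and 7.3 TPM. Ccr9 and Xcr1 were at 0.0499 and 0.0103 TPM, and in all 22 of 29 listed migration receptors were expressed.

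Of the suppressive factors, Tgfb1 had a mean of 212 TPM, Ebi3 59.8 TPM and Il10 30.8 TPM. Il10 was at 31.4, 26.6, 20.9, 49.5 and 25.6 TPM, highest in culture 4. Il12a, which encodes the partner of Ebi3 in IL-35, had a mean of 0.418 TPM. Gzmb, the protease granzyme B, varied widely, at 1226, 649.9, 186, 1258 and 614 TPM, with culture 3 lowest. Prf1 (perforin) was at 22.8, 15.7, 4.86, 22.7 and 6.09 TPM and Gzma at 40, 6.99, 1.36, 7.86 and 6.01 TPM, with culture 3 lowest for both and culture 1 well above the others for Gzma. Nt5e (CD73) and Entpd1 (CD39), which turn extracellular ATP into adenosine, had means of 116 and 41 TPM.

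Most effector cytokine genes fell short of the threshold for expression. Of 28 cytokine and chemokine genes listed, 17 were under 1 CPM in all 5 cultures and 3 of those, Il13, Il22 and Il1a, had no count. Of the 28, 6 were expressed, against 48.7% of protein-coding genes. The list's median was 0.706 TPM, against 1.24 TPM for all protein-coding genes, expressed or not. Ifng had a mean of 0.73 TPM, Il17a 0.0632 TPM, Il4 0.142 TPM and Il21 0.0123 TPM. The most abundant members were 3 ligands of the TNF family. Ltb was at 947, 1099, 1384, 1270 and 737 TPM, Lta at 828, 1161, 651, 503 and 547 TPM and Tnf at 207, 184, 108, 94.5 and 130.1 TPM. Il16, a constitutive T cell product, was at 134 ± 20.2 TPM (SD, n = 5). Il9 was at 7.68 TPM in culture 1 and at 0 to 1.18 TPM in the others.

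The antigen receptor and its signalling chain were expressed in full, with all 26 listed genes at 1 CPM or more in each culture. Trbc2, Trbc1 and Trac, the constant regions, had means of 2849, 1783 and 1710 TPM, of which Trbc1 and Trbc2 are near-identical copies with uncertain shares. Cd4 was among the steadiest, at 453, 446, 458, 479 and 470.1 TPM, and the kinase Lck was at 864 ± 82.6 TPM (SD, n = 5). Cd3g lay at 359 TPM in culture 5 and at 251 to 274 TPM in the others. Malt1 and Bcl10, of the adaptor complex that leads to NF-kappaB, had means of 42 and 60.2 TPM.

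Cd8a and Cd8b1, the chains of the CD8 coreceptor, were the markers of another T cell type that stood out. Cd8a (GRCm38 chromosome 6, 71373427 to 71379173) was at 38.6, 39.5, 2.17, 107 and 44 TPM and Cd8b1 at 69, 73.6, 38.1, 133 and 76.2 TPM. Culture 4 was highest and culture 3 lowest for both. Their sum was 108, 113, 40.2, 239.8 and 120.3 TPM in cultures 1 to 5. Both this sum and Gzmb were lowest in culture 3 and highest in culture 4. In cultures 1, 2 and 5, where the sum was similar, Gzmb was at 1226, 649.9 and 614 TPM. The part of the CD8 transcripts in the levels of Gzmb, Prf1 and Lag3 was not tested. Of 7 natural killer cell markers 2 were expressed, with Klrd1 at 11.3 TPM, while Ncr1 and Klra8 were at 0. Of 8 B and plasma cell markers, Ighm was at 1448 ± 238 TPM (SD, n = 5) while Ms4a1 and Pax5 were at 1.27 and 0.161 TPM. Of 10 myeloid markers 2 were expressed, Itgam, an integrin chain, at 9.56 TPM and Cd68, a lysosomal protein, at 8.42 TPM. Itgam shares 68.1% of its 31-base words with other genes, so its level is uncertain. The 10 summed to 17.1 to 24.3 TPM. Others were at or near 0, with Lyz2 at 0.0643 TPM, Csf1r at 0.0259 TPM, and S100a8 and S100a9 at 0. The 6 dendritic cell markers summed to 0.835 to 1.4 TPM. Of 9 markers of stroma, vessel lining and epithelium 2 were expressed, Pecam1 at 120.4 TPM and the epithelial adhesion gene Epcam at 32 TPM. Pecam1 was listed as a marker of vessel lining but is also carried by T cells, and Cdh5, which marks that lining, was at 0.12 TPM. The keratin gene Krt18 had a mean of 1.38 TPM. Gamma-delta constant genes Tcrg-C1, Tcrg-C2 and Tcrg-C4 had means of 8.91, 30.6 and 16.6 TPM, and the gamma-delta factor Sox13 0.0327 TPM.

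Proliferation genes were abundant. Of 36 cell cycle genes, 32 were expressed, with a median of 182 TPM. Mki67, the proliferation antigen, was at 1136, 1166, 959, 805 and 1182 TPM and Top2a, which untangles copied DNA, at 1099, 1124, 871, 715 and 1058 TPM. Pcna and Mcm3 to Mcm6 of the replication machinery had means of 463 to 626 TPM, and Rrm2, which supplies deoxynucleotides, 765 TPM. Culture 4 was the lowest for these genes. Among the 31 cell cycle genes with a mean of at least 10 CPM, 23 had their lowest CPM in culture 4, against 26.9% of the 8646 protein-coding genes at that level. The summed TPM of the list was 8656 in culture 4 and 10084 to 10753 in the other 4, a 1.24-fold range. Ccnd2 and Ccnd3, with means of 370 and 185 TPM, were the D cyclins used, and Ccnd1 was at 0.0623 TPM. The inhibitors Cdkn2d, Cdkn1b and Cdkn2c had means of 398, 168 and 165 TPM, while Cdkn2a and Cdkn2b were at 7.42 and 3.08 TPM. Ezh2, the methyltransferase of Polycomb repressive complex 2, was at 157, 199, 172, 139 and 210.2 TPM, so culture 1, with 1 floxed allele, lay within the range of the cultures with none. A level counted over the whole gene does not show whether Cre recombined the floxed allele, which was not tested.

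The summed TPM of the glycolysis genes differed more between cultures than that of the 4 other metabolic lists (citrate cycle, lipid, amino acid transport, and nucleotide and one-carbon). The glucose transporters Slc2a1 and Slc2a3 had means of 181 and 70.5 TPM, and Hk1 and Hk2 of 166 and 81 TPM, while Slc2a2, Slc2a4 and Hk3, forms of other tissues, were at 0.117 TPM or less. Pgk2, Pgam2, Pklr and Ldhc, forms of liver, muscle or testis, had no count. Aldoa was at 1896, 2303, 992, 3031 and 631 TPM, Tpi1 at 1587, 1922, 777, 2196 and 514 TPM, and Ldha, which makes lactate, at 2527, 2744, 1681, 3037 and 1388 TPM. Cultures 1, 2 and 4 were the high ones in each case, and the range of cultures 3 and 5 did not meet theirs. Slc16a3, the lactate exporter, followed the same order, at 255, 254, 104, 372 and 53.9 TPM. Slc16a1, the other lactate carrier, did not, at 63.7 to 73.7 TPM. Ldhb, the form that favours lactate use, was highest in culture 5, at 185 TPM, and Eno3, the muscle enolase, in culture 3, at 739 TPM. The mean of Eno3, 414 TPM, was close to the 426 TPM of Eno1, the widespread form, and their ranges overlapped. Gapdh was listed at only 12.8 TPM and Pgam1 at 10.1 TPM. Of their 31-base words 27.2% and 37.1% also occur in other genes, against a median of 0.456% for genes with at least 1000 counts, so their true levels are uncertain. The share is 28.5% for Eno1 and 0% for Eno3, so how the enolases compare is uncertain too. For Ldhb, Ldha, Aldoa and Tpi1 the shares are 33, 19.6, 17 and 10.3%.

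Targets of the hypoxia-inducible factors (HIF), which are induced when oxygen is low and also by growth signals, showed the same division of the cultures. Bnip3, a mitophagy receptor, was at 146, 165, 33.6, 195 and 40.2 TPM. Egln3, an oxygen-sensing hydroxylase, was at 218, 181, 37.3, 238 and 77.3 TPM, and Pdk1, which holds pyruvate out of the mitochondria, at 143, 151, 64.9, 158 and 56.7 TPM. P4ha2, a collagen hydroxylase, was at 7.93, 12, 0.33, 15.7 and 0.315 TPM and nearly off in cultures 3 and 5. Car9, an acid-base enzyme strongly induced in hypoxic tumours, was at 0.696 to 1.34 TPM and was highest in culture 3. Among genes with a mean of at least 10 CPM, cultures 3 and 5 were the lowest pair for 17 of 19 HIF targets and 16 of 20 glycolysis genes, against 9.8% of all 8646 protein-coding genes at that level and 0 of 22 citrate cycle genes. This pairing was noticed in these data and is a description. The labels name no condition that separates cultures 3 and 5 from the rest, and oxygen or cell density in the cultures was not given. Both hold Y-linked transcripts, as does culture 2, which was high.

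**Figure D4:**
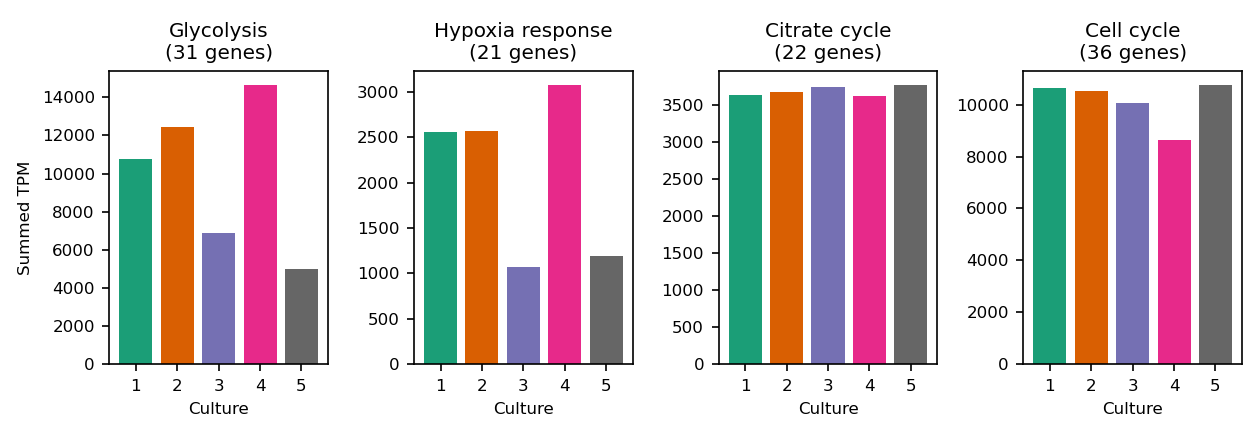
Summed TPM (bars from 0) of 4 gene lists in each WT culture. The glycolysis sum runs from 5008 TPM in culture 5 to 14636 in culture 4 and the hypoxia response sum from 1065 in culture 3 to 3072 in culture 4, while the citrate cycle sum stays between 3624 and 3772.

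The summed TPM of the 31 glycolysis genes was 10785, 12435, 6905, 14636 and 5008, a 2.92-fold range. That of the 21 HIF targets was 2561, 2571, 1065, 3072 and 1195, a 2.89-fold range. The 22 citrate cycle genes summed to 3643, 3687, 3749, 3624 and 3772, a 1.04-fold range, so transcripts of the cycle stayed level where those of glycolysis did not. All 22 were expressed, from Suclg2 at 15.7 TPM to Sdhd, a membrane anchor of succinate dehydrogenase, at 481 TPM. Within that list Pcx (pyruvate carboxylase) differed, at 142, 167, 74.5, 156 and 157 TPM, with culture 3 low. The 36 cell cycle genes took another order, with sums of 10643, 10550, 10084, 8656 and 10753 TPM, lowest in culture 4, next lowest in culture 3 and highest in culture 5.

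**Figure D5:**
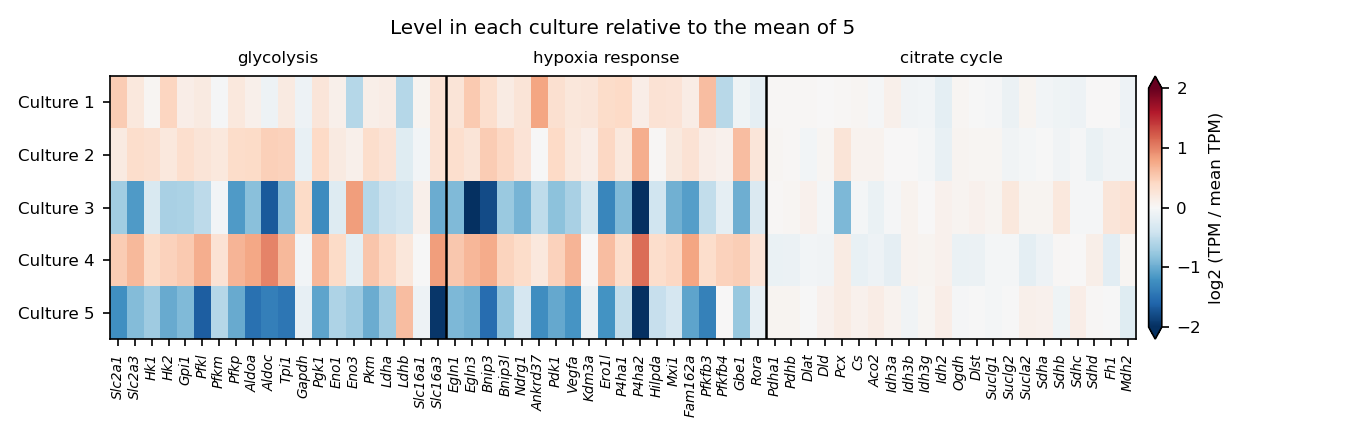
Level of each gene in each WT culture relative to its mean over the 5, as log2 of the ratio of TPM values (colour; values beyond 2 in either direction are drawn at 2), for genes of the 3 lists with a mean of at least 10 CPM. Rows for cultures 3 and 5 are mostly blue in the glycolysis and hypoxia blocks and pale in the citrate cycle block; Eno3, Ldhb and Slc16a1 are exceptions.

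Windows at the starts of 3 of these genes are shown because the HIF complex is known to bind a short core, ACGTG or GCGTG, on either strand. Each is from RefSeq on GRCm38.p6, 5′ to 3′ on the strand of the gene, with matches to either core or to its reverse complement (CACGT or CACGC) in capitals, and a CACGTG counts once on each strand. Bnip3 lies at chr7:138909457-138909756 on the minus strand, Ldha at chr7:46845554-46845853 on the plus strand and P4ha2 at chr11:54100674-54100973 on the plus strand. The Bnip3 window held 2 forward and 3 reverse matches, that of Ldha 4 and 3, and that of P4ha2 3 and 1.
Bnip3: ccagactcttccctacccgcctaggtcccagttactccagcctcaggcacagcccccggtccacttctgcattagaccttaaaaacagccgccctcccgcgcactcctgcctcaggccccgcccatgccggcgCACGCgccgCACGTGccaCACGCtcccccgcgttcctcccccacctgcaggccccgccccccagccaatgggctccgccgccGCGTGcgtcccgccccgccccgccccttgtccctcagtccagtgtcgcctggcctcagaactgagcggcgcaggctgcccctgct
Ldha: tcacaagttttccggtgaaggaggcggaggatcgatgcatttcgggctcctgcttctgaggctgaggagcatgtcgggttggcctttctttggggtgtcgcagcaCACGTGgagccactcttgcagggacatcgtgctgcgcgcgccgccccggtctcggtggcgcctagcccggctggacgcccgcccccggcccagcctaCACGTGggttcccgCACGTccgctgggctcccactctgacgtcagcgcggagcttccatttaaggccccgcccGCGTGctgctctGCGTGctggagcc
P4ha2: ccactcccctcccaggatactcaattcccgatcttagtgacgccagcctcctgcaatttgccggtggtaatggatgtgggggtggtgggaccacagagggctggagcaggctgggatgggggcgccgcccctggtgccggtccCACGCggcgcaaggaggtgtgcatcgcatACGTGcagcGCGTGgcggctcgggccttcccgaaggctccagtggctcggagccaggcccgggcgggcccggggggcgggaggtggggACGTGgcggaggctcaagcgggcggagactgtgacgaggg

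The core is short and common in CpG-rich DNA. It was found in the windows of 14 of 17 HIF targets at 1 TPM or more (82.4%) and of 17 of 21 glycolysis genes (81%), against 72.8% of all CpG-rich windows (observed over expected CpG of 0.6 or more) of genes at that level. The citrate cycle genes, whose levels stayed even, had it in 12 of 19 (63.2%) and the cell cycle genes in 21 of 27 (77.8%). Over all 16317 matched windows the share was 51.6%. A match is only a description of the letters, and whether HIF bound there was not measured.

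Transcripts of lipid synthesis were abundant. Scd2, which desaturates fatty acids, was at 1235, 1536, 1606, 2109 and 1480 TPM, against a mean of 325 TPM for Scd1, and Fasn and Acly had means of 365 and 503 TPM. Of 14 cholesterol synthesis and uptake genes all were expressed, led by Hmgcs1 at 351, 466, 514, 474 and 453 TPM, and most were lowest in culture 1 (list sum 1961 TPM against 2363 to 2772 TPM elsewhere). Cpt1a, the gate of fatty acid oxidation, was at 74.3 ± 6.73 TPM (SD, n = 5), and Cpt1b and Cpt1c were under 1 TPM. Cpt1b shares 79.7% of its 31-base words with other genes, so its level is uncertain. Of the amino acid carriers, Slc1a5 had a mean of 246 TPM, Slc7a5 182 TPM and its partner Slc3a2 104 TPM, while Slc7a2 had no count and the cystine carrier Slc7a11 was at 0.0153 TPM. In one-carbon metabolism Phgdh and Shmt2 were highest in culture 3, at 208 and 302 TPM against 107 to 125 TPM and 159 to 243 TPM in the others.

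Few genes differed widely between the cultures. Of 8646 protein-coding genes with a mean of at least 10 CPM, 53 (0.613%) had a highest CPM over 4 times the lowest, and 78.7% stayed within 1.5-fold, with a median of 1.3-fold. Of the 53, 4 are Y-linked. Cultures 3 and 5 were the lowest pair for 29 of the 53, against 9.8% of the 8646 genes. Culture 4 was the highest for 32 of the 53, against 18% of the 8646. Without culture 3 the number over 4-fold was 28. Outside the sex-linked genes and those already named, the genes with the largest SD of log2 CPM were Plcxd1, Emilin2, Ak4, Pygl and Itga7. Ak4, an adenylate kinase of mitochondria, was at 39.6, 35.3, 5.29, 52 and 3.59 TPM. Pygl, which releases glucose units from glycogen, was at 12, 14.7, 1.11, 16.2 and 3.99 TPM, and Itga7, a laminin receptor chain, at 28.1, 43.7, 5.58, 63.2 and 11.5 TPM. All of these were low in cultures 3 and 5. Ly6a (Sca-1) took another course, at 290.1, 128, 55, 366 and 416 TPM, lowest in culture 3 and highest in culture 5. At the other end Ap3b1, of the vesicle adaptor complex AP-3, stayed at 138 to 144 TPM, Rassf5, which links Ras to T cell adhesion, at 315 to 331 TPM and the actin regulator Wdr1 at 253 to 262 TPM.

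Gene families of the senses were mostly silent. Of 1050 olfactory receptor genes, 1020 (97.1%) had no count in any culture, and the highest, Olfr56, had a mean of 0.796 TPM. Vomeronasal receptors were as silent, with 171 of 174 Vmn1r and 118 of 121 Vmn2r genes at 0, and so were 54 of 56 keratin-associated and 40 of 42 beta-defensin genes. Of 53 keratins 35 had no count, and of 39 Hox genes 19, with Hoxb4 the highest at 2.95 TPM. Cytochrome P450 genes divided, with 72 of 100 at 0 and Cyp51, the demethylase of cholesterol synthesis, at 315 TPM. Of 26 genes that mark liver, pancreas, muscle, brain or germ line, 23 were under 1 CPM in all cultures and 11 had no count, among them Alb, Ins2 and Nanog. The other 3 were Mbp, which encodes myelin basic protein and has a transcript form known from blood cells, at 67.7 ± 5.99 TPM (SD, n = 5), Syp (synaptophysin) at 14.3 TPM, and Prss2, a trypsin gene of the pancreas. Prss2 was at 0.0815, 0, 4.77, 0.259 and 6.44 TPM, above 1 CPM in culture 5 alone. By contrast 75 of 80 cytosolic ribosomal protein genes, 38 of 40 proteasome genes and 45 of 46 nuclear genes of respiratory complex I were expressed.

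A count of 0 does not always mean that a gene was off. Of 841 protein-coding genes that share 90% or more of their 31-base words with another gene, 756 (89.9%) had no count, against 5063 of 19704 genes (25.7%) that share under 50%. Of the 13 mitochondrially encoded protein genes, most of which are transcribed together, 6 were listed at 0 in every culture. For mt-Co2, mt-Co3, mt-Atp6, mt-Nd3 and mt-Nd4l, 98.1 to 100% of words occur in another gene, whereas mt-Atp8, also at 0, shares 7.47%, and mt-Co1, at 63.9%, was counted. How reads that fit several places were handled is not given in the sources used here, and its part in these zeros was not tested.

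Promoter sequence followed the level classes. Windows were matched for 16317 of 21541 protein-coding symbols, taking the one with most CpG where a gene had several. The median ratio of observed to expected CpG was 0.20 for genes at 0 counts, 0.48 under 1 TPM, 0.69 from 1 to 10 TPM, 0.82 from 10 to 100 TPM and 0.83 at 100 TPM or more. A TATAAA on either strand was found in 24.9% of windows in the first class and in 4.72% and 7.22% in the last 2. Lists of immune receptors differed from each other. At 1 TPM or more, 0 of 10 TNF receptor genes had a ratio of 0.6 or higher, and the share was 12.5% of chemokine and migration receptor genes and 18.2% of checkpoint genes, against 60% of cytokine receptor genes. Of the Treg signature genes 45.5% had a ratio of 0.6 or higher. The share was 52.8% of all matched genes and 82.4% of those at 100 TPM or more. The Il2ra window, printed above with its 3 CG, had a ratio of 0.23, and that of Foxp3 0.47, while that of Ctla4 had 0.61 and that of Tmsb4x 0.99. The cell cycle genes, with 96.3% of windows at 0.6 or higher, lay at the opposite end. These are descriptions of genes, which are not independent of each other.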

How the data were processed

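RNA was sequenced from 9 Treg cultures with a stranded mRNA kit on a HiSeq instrument, per the labels' protocols, and only the 5 WT libraries were used here. The authors deposited whole-number counts per gene, not normalized, for 43432 Ensembl identifiers. STAR and GRCm38 are named in the submitters' processing notes. No source used here gives the counting tool, its strand setting or its handling of reads that map to several places, so near-identical and overlapping genes have uncertain counts.

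Symbols, positions and exon lengths came from GENCODE M21 (42548 identifiers matched). TPM used the union of a gene's exons. CPM used library sizes scaled by trimmed means of M-values (edgeR 4.0.16, R 4.3.3). Identifiers with no annotation held 0.116 to 0.134% of counts. No library pair was a duplicate, with a chi-square per degree of freedom of at least 23.56. There is 1 group, so no test between groups was run. The spread estimate was tested on simulated data.

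Named genes were the members of 31 gene lists (512 of 514 symbols in the table), the 30 most abundant nuclear protein-coding genes by TPM, the 10 by CPM, the 10 leading noncoding transcripts, the 20 most and 10 least variable protein-coding genes, and silent families. Gata1 and other list members were singled out in the text after their values were seen, as was the pairing of cultures 3 and 5. The members and lists were chosen with earlier results of these data known. Alternatives were other scalings, filters, thresholds and gene lengths, and leaving out each culture. Chosen after seeing the data were leaving out short genes, the Y chromosome and genes with shared sequence. Results of some genes were left out of the text.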

Additional observations from a re-analysis of the deposited data

Results flagged for a closer look

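Of 468 named genes with a mean of at least 1 TPM, 41 (8.76%) had a culture set apart from the other 4 by Dixon's test for 5 samples (critical value 0.71), where chance gives about 1 in 20. All values here are TPM. No explanation was tested.

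Culture 3 held 17 of them. It was above the others for the replication and division genes Mcm2 (226), Tk1 (125) and Plk1 (328), the nucleotide and serine synthesis genes Cad (135), Umps (135), Dhodh (14.2) and Phgdh (208), and for Tcf7 (343), Tnfrsf25 (139), Suclg2 (18.1), Gapdh (16.6) and Gm42418 (2396). It was below the others for Prdm1 (28), Nt5e (87.9), Cd44 (69.8), Cdkn1a (89.1) and Pcx (74.5).

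Culture 4 held 12. It was highest for Ctla4 (1746), Lag3 (125), Itgae (31.3), Ahr (22.7), Il12rb1 (41.4), Tgfbr3 (4.14) and Ccl3 (7.84). It was lowest for Mcm3 (518), Mcm7 (263), Tubb5 (2463) and the pyruvate dehydrogenase genes Pdha1 (219.6) and Pdhb (48.1).

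Culture 5 held 10. It was lowest for Foxp3 (1100), Nfatc1 (58.4), Anapc2 (179.8) and Nsun3 (14), the last 2 among the steadiest genes of all. It was highest for Cd3g (359), Il2rg (556), Klf3 (34.5), Satb1 (37.6), Elovl6 (238) and Acaca (13.9). Culture 1 held 2, and was highest for Gzma (40) and Il9 (7.68). Culture 2 held none in this set of genes.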

How the results depend on the processing

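No paired analysis was possible because there is 1 group and no contrast. The levels of Foxp3, Il2ra, Ctla4 and Ikzf2 moved by less than 1 SD under every scaling in CPM, and in TPM only Foxp3 moved further, to 1136 TPM, when the longest transcript replaced the union of exons. Without 1 culture each, Foxp3 ranged from 1252 to 1313 TPM, Il2ra from 3838 to 3980, Ctla4 from 1415 to 1513 and Ikzf2 from 139 to 155. The longest transcript moved 218 of 573 other named genes by 1 SD or more. Leaving out 1 of 5 cultures cannot move a mean by 1 SD. Among named genes at 1 TPM or more it moved the mean by over 1.5 times for 8, to 5.55 TPM for Gzma, 0.866 for Gzmk, 0.752 for Il9 and 117 for Xist without culture 1, to 7.03 for Xcl1 without culture 3, to 5.79 for Stc2 without culture 4, and to 1.73 for Jchain and 1.28 for Prss2 without culture 5. The 100 leading genes held 14.6% of counts without mitochondrial genes. The 53 genes over 4-fold became 111 at over 3-fold, 202 with a minimum mean of 1 CPM, 49 without the Y chromosome, and 28 to 55 with 1 culture left out, the fewest without culture 3. Counts of expressed genes (10350 to 12779) and of silent protein-coding genes (5063 to 8140) stayed within 1.5 times. The coefficient of variation ran from 0.169 to 0.216, and from 0.174 to 0.202 without 1 culture.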
